A study of Drosophila melanogaster with 14 samples.

Results

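The nuclear pore complex and the soluble machinery that moves cargo through it were followed as a set of 39 genes in RNA-seq of Drosophila melanogaster testes. The set was a list of nucleoporin, karyopherin and Ran pathway genes, widened by any further gene with a symbol of Nup and a digit, of which there was none. All 39 were found among the 13776 genes listed, and all 39 were among the 10318 genes that were tested, for which 3 or more libraries had to hold 10 or more expected reads.

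The pore is a ring-shaped channel in the nuclear envelope, built of nucleoporins that form outer (Y complex) and inner rings, a central channel lined with phenylalanine-glycine repeats, cytoplasmic filaments and a nuclear basket. Importins and exportins carry cargo through the channel, and the small GTPase Ran gives the traffic its direction. The nuclear lamina lies under the inner nuclear membrane and contacts the pores, and the testis carries additional gene copies of several transport factors.

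RNA was taken from testes of larvae of the third instar, with about 200 testes per replicate. The males of 3 libraries carried the driver bam-Gal4-VP16 alone (control). Those of the other 3 libraries (Lam-KD) carried this driver over UAS-LamDm0-RNAi and, heterozygous over +, also UAS-LamC-RNAi, hairpins against both lamins. The driver is expressed in germline cells of the late SpG (spermatogonia) and SpCs (spermatocytes), whereas the libraries were made from whole testes that also hold somatic cyst cells and some fat body. Hairpin expression and strain differ together between the groups, so that their effects cannot be told apart. In these bulk samples, a lower share of cells of one type and less RNA per cell cannot be told apart either.

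The 6 libraries held 5651960 to 7437111 expected reads, and the 39 genes took 0.745 to 0.803% of them. Both targeted genes were lower in every Lam-KD library, with log2 fold changes of -2.50 (Lam) and -1.76 (LamC). Markers of the SpCs summed to 783–947 TPM in control and 946–964 TPM in Lam-KD, and those of the early germline to 70.1–117 and 115–137 TPM. All 10 SpC and 5 early germline markers were detected in every library. Fat body markers summed to 5954–8903 TPM in control and 4772–7653 TPM in Lam-KD. Markers of cyst and hub cells summed to 40.8–51.2 and 53.5–56.5 TPM and those of neurons to 7.39–9.42 and 11.4–14.7 TPM, with no overlap between the groups in either list. Of the neuron markers, Syt1 rose (4.45 to 10.3 TPM) and nSyb fell (3.93 to 1.91 TPM). Sums of muscle markers (4.85–5.53 and 4.53–4.80 TPM) did not overlap either and were lower in Lam-KD. Among them, Mhc, Mlc2 and up were lower by mean TPM, whereas Act57B was higher (1.81 to 2.48 TPM). Hemocyte markers summed to 11.8–21.3 and 13.2–15.8 TPM. The part of these cells in the results below was not tested. Control replicate 3 stood apart, with a scaling factor of 0.916 against 1.01 to 1.03 in the other libraries.

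Expression of the set spanned 331-fold between its extremes in control testes. Levels are given as TPM, the share of transcripts scaled to a fixed total, which accounts for transcript length and so allows a comparison between genes. The median of the members in control was 34.0 TPM, against 22.9 TPM for all tested genes. Of the 39 genes, 4 were below 10 TPM, 28 between 10 and 100 TPM, and 7 at 100 TPM or more. In the plot of TPM by library, the highest genes are transport factors and the lowest are structural nucleoporins. Between these ends the roles mix, with the nucleoporin Nup62 at 107 TPM in control and the transport factors emb and Nxt1 at 20.5 and 15.5 TPM.

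**Figure D1:**
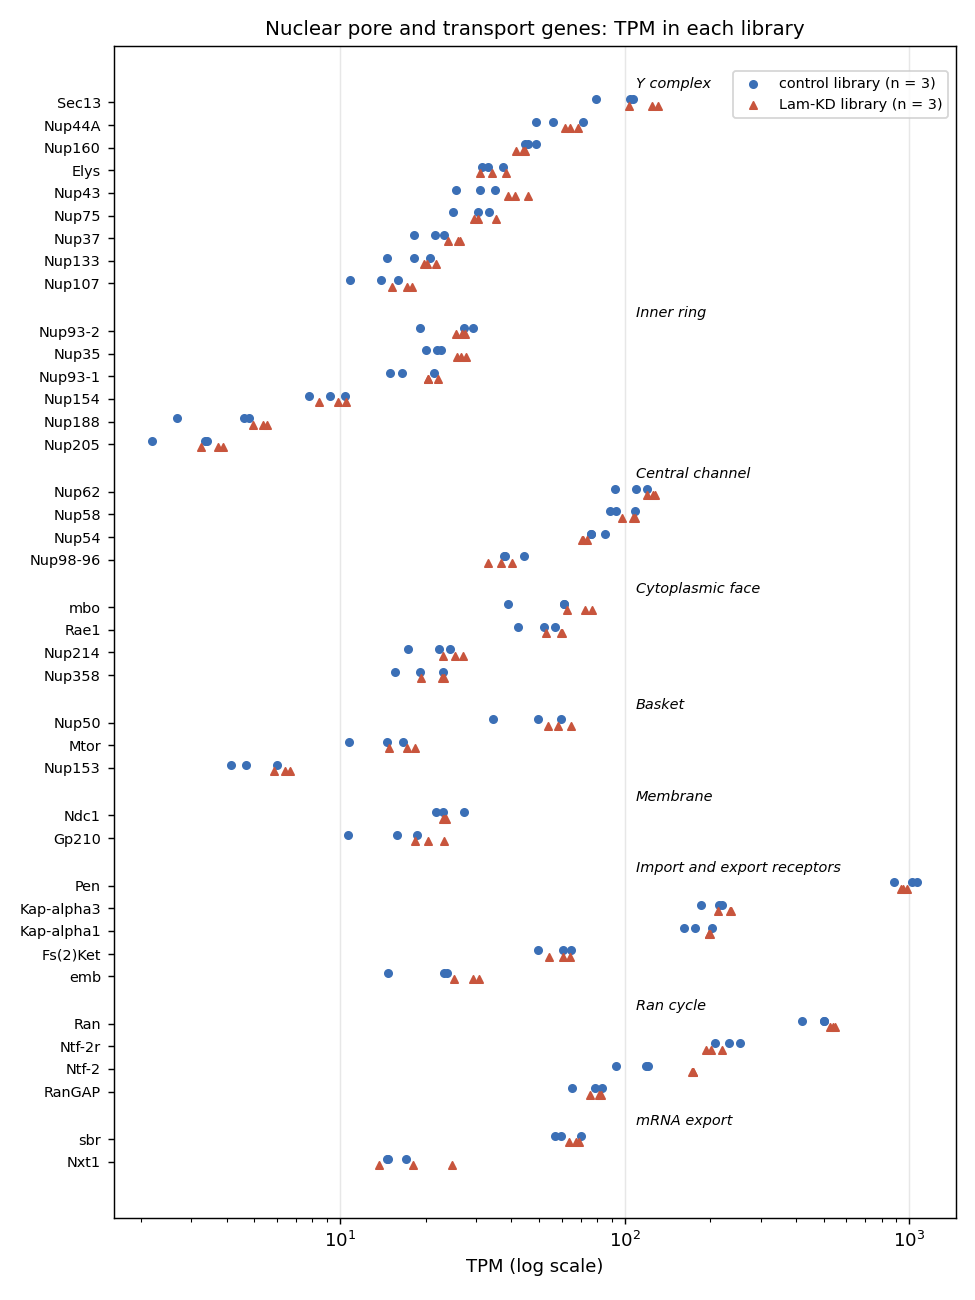
TPM (log scale) of the 39 genes in each of 3 control (circles) and 3 Lam-KD (triangles) libraries, grouped by role and ordered by the control mean. Pen lies highest and Nup205 lowest, and in most rows the circles and triangles intermix.

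Pen, one of the alpha importins, which bind nuclear localization signals and are needed for germ cell development, had by far the highest level, 988 ± 95.8 TPM in control (SD, n = 3). This made it number 128 of all listed genes and 2.09 times as abundant as Ran. Ran was second with 473 ± 46.2 TPM, and Ntf-2r, Kap-alpha3 and Kap-alpha1 followed with 231 ± 23.2, 206 ± 18.3 and 180 ± 21.3 TPM. The SDs of these last means overlap from one to the next.

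The 5 lowest genes were all structural. Nup205 (2.99 ± 0.696 TPM) and Nup188 (4.03 ± 1.18 TPM) encode large inner ring scaffolds, and Nup154 (9.15 ± 1.30 TPM), which is needed for gametogenesis in flies, belongs to the same ring. Nup153 (4.95 ± 0.965 TPM) is part of the nuclear basket and Nup107 (13.6 ± 2.63 TPM) of the Y complex.

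Upon Lam-KD, the set as a whole changed little. Only Ntf-2, which returns Ran-GDP to the nucleus, passed both an adjusted P under 0.05 (edgeR quasi-likelihood test with Benjamini-Hochberg adjustment) and a 1.5-fold change of mean TPM. This was 1 of 39 genes higher, against 3.19% of all tested genes, and 0 lower, against 3.22%. By adjusted P alone, Ntf-2 and the Y complex gene Nup43 rose, which was 2 of 39 against 5.31% of all genes, and 0 fell, against 7.34%. At an unadjusted P under 0.05 there were 7 higher and 3 lower genes, together 25.6% of the members against 34.4% of all tested genes. Leaving out control replicate 3, 0 members passed both criteria because the fold of Ntf-2 was then 1.45, while Ntf-2, emb and Gp210 passed by adjusted P alone (7.69% of members, against 15.9% of all genes then tested). Without control replicate 2, 2 members passed both, as did 820 of 10234 genes in all (8.01%). Without Lam-KD replicate 1 or 2, 0 members did, against 3.23 and 3.49% of all genes.

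The precision was sufficient to limit the change of most members. For 33 of 39 genes, the 95% interval of the log2 fold change lay within a 1.5-fold change in either direction, and the standard errors were between 0.077 and 0.25. The fold changes of the 37 genes that did not pass were between -0.28 and 0.39 on the log2 scale. Nxt1, which had no more than 25 to 49 reads per library, had the widest interval.

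**Figure D2:**
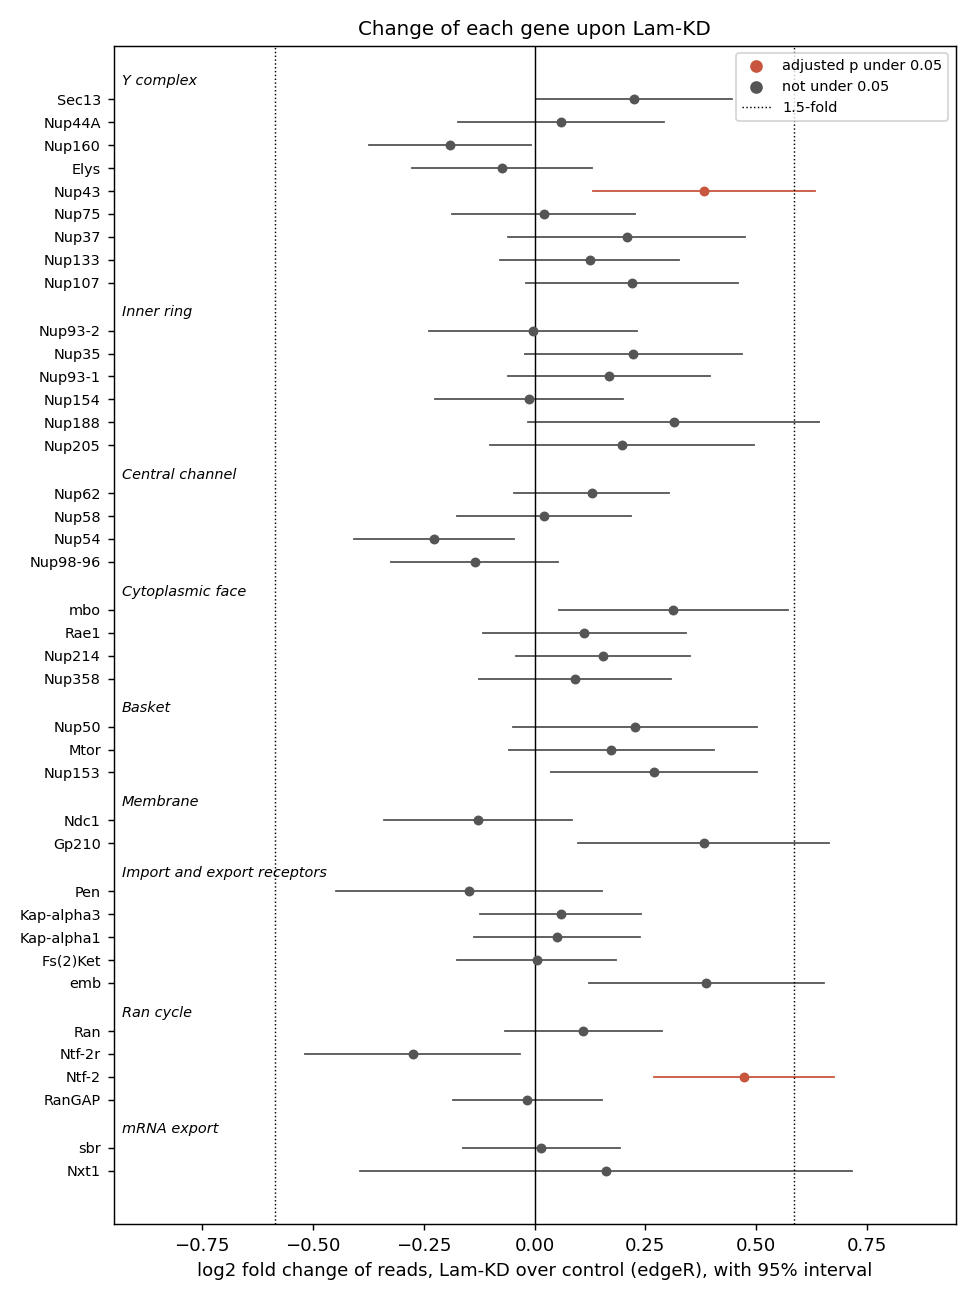
Log2 fold change of reads, Lam-KD over control, with the 95% interval from edgeR, for the 39 genes grouped by role. Ntf-2 and Nup43 are the genes in red with an adjusted P under 0.05, and the intervals of 33 genes stay between the dotted 1.5-fold lines.

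Small differences leaned to one side. Of the 39 log2 fold changes, 29 were positive (74.4%, against 51.6% of all tested genes) and 10 negative. Their median was 0.11, against 0.01 for all tested genes. By TPM, the 3 Lam-KD libraries lay above all 3 control libraries for 9 members (23.1%, against 21.5% of all tested genes) and below them for 2 members (5.13%, against 15.6%). The first were Nup37, Nup43, Nup35, Nup188, Nup62, mbo, emb, Ran and Ntf-2, and the second Nup160 and Nup54.

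Control replicate 3 moved with this lean. It was the lowest of the 6 libraries for 31 of 39 members (79.5%), against 52.3% of all tested genes, and the median TPM ratio of the members, 1.14, was 1.06 without it (1.07 and 1.02 for all tested genes). As the plot of the library medians shows, the members lay 0.34 below their 6-library mean in this library on the log2 scale, and all tested genes 0.22 below.

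**Figure D3:**
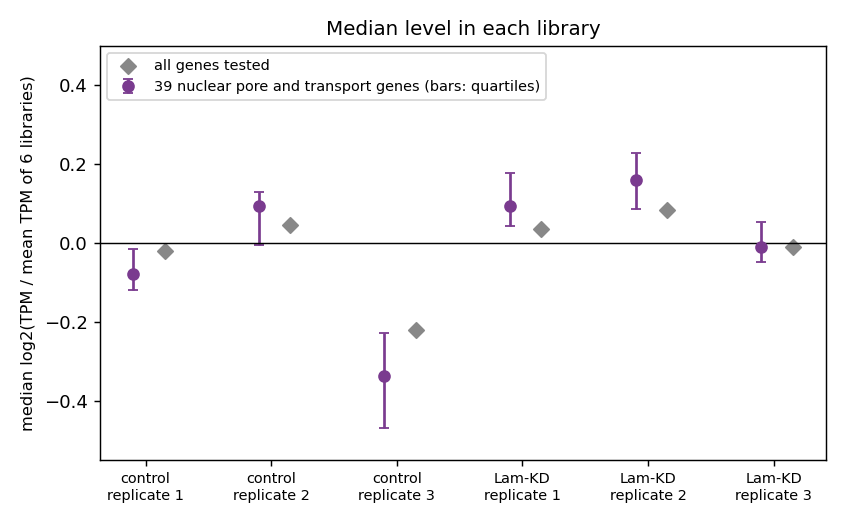
Median log2 ratio of TPM to the mean TPM of the 6 libraries, for the 39 genes (circles, with bars to the quartiles) and for all tested genes (diamonds). Control replicate 3 is the lowest library for both, at -0.34 and -0.22.

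In the Y complex, the outer ring scaffold, Nup43 rose. Its TPM was 31.1, 35.1 and 25.5 in control and 45.8, 41.1 and 38.9 in Lam-KD, so that every Lam-KD library was above every control. The log2 fold change was 0.38 ± 0.11 (SE), with an adjusted P of 0.0498 in edgeR that lies at the threshold. Nup43 no longer passed by adjusted P in 9 of 13 alternative fits, where adjusted P reached 0.216.

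The other 8 genes of the complex (Nup107, Nup160, Nup133, Nup75, Nup37, Nup44A, Sec13 and Elys) did not pass, with log2 fold changes of -0.19 to 0.22. Sec13 and Nup44A encode proteins with further roles outside the pore, Sec13 in the coat of secretory vesicles, and Elys brings the complex to chromatin. Elys had 34.0 ± 3.00 TPM in control and 34.5 ± 3.57 TPM in Lam-KD.

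None of the 6 inner ring genes passed. Nup188 was at 4.59, 4.81 and 2.68 TPM in control and 5.36, 5.55 and 4.94 TPM in Lam-KD. The groups did not overlap, but the control libraries were spread more widely than the gap between groups, and adjusted P was 0.159 in edgeR. Nup205 (log2 fold change 0.20) and Nup154 (-0.01) overlapped between groups.

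Nup93-1 and Nup93-2 are a pair of genes for the same inner ring linker, on the X chromosome and on 3R. Nup93-1 had 16.5, 21.3 and 14.98 TPM in control and 20.4, 22.04 and 20.3 TPM in Lam-KD, and Nup93-2 had 27.3, 29.4 and 19.2 TPM and 26.7, 27.6 and 25.6 TPM. Nup93-2 was thus above Nup93-1 in every library. Their ratio was 1.44 ± 0.197 in control and 1.28 ± 0.0335 in Lam-KD, a log2 difference of -0.16 (exact permutation test, two-sided, P = 0.2, adjusted over 3 pairs 0.2).

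In the central channel, Nup62, Nup54 and Nup58 make up the repeat-bearing complex and Nup98-96 encodes a precursor that is cleaved into a channel and a Y complex protein. None passed. Nup54 had 76.4, 85.6 and 76.4 TPM in control and 73.9, 71.5 and 70.8 TPM in Lam-KD, below every control, with a log2 fold change of -0.23 ± 0.083 (adjusted P = 0.0845, edgeR). Nup62 was on the other side, with 107 ± 13.9 and 125 ± 4.26 TPM and a log2 fold change of 0.13, without passing either.

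The 4 genes of the cytoplasmic face (mbo, Nup214, Nup358 and Rae1) had log2 fold changes of 0.09 to 0.31, and the 3 of the basket (Nup50, Nup153 and Mtor) of 0.17 to 0.27. None passed. Of these, mbo encodes the fly Nup88, which retains the exportin at the cytoplasmic face, and Mtor the basket filament, while Nup358 binds Ran and RanGAP at the cytoplasmic filaments and Rae1 is an mRNA export factor that binds Nup98. Nup153 had 4.70, 6.01 and 4.13 TPM in control and 6.42, 6.69 and 5.86 TPM in Lam-KD, where the lowest Lam-KD library fell within the controls. The nucleoporins that anchor the pore in the membrane, Gp210 (log2 fold change 0.38, adjusted P = 0.0718, edgeR) and Ndc1 (-0.13), did not pass.

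Among the receptors, the exportin emb (CRM1), which carries leucine-rich export signals, came closest. Its TPM was 23.2, 23.7 and 14.7 in control and 29.3, 30.7 and 25.1 in Lam-KD, with no overlap. The log2 fold change was 0.39 ± 0.12 with an adjusted P of 0.0565 in edgeR, and emb passed in 6 of 13 alternative fits. The importin beta Fs(2)Ket had 58.3 ± 7.79 and 59.7 ± 5.14 TPM.

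The 3 alpha importins of the set kept their order in every library. Pen was at 881, 1019 and 1065 TPM in control and 933, 979.7 and 947 TPM in Lam-KD. Kap-alpha3 was at 214, 219 and 185 TPM and then 235, 234 and 212 TPM, and Kap-alpha1 at 177, 203 and 161 TPM and then 197, 199 and 198 TPM. None of them passed, with log2 fold changes of -0.15, 0.06 and 0.05.

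Together with alphaKap4, a further member of this family, Pen made up 66.5 ± 2.72% of the summed alpha importin TPM in control and 65.3 ± 0.750% in Lam-KD. alphaKap4 took 7.36 ± 0.581% and 5.64 ± 0.132%. It fell by 0.50 on the log2 scale (adjusted P = 0.0223, edgeR), at 102, 104 and 121 TPM in control and 83.1, 82.1 and 82.0 TPM in Lam-KD, with no overlap.

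Of the 39 genes, Ntf-2 had the lowest adjusted P. Its TPM was 120.4, 118 and 93.1 in control and 173, 174 and 172 in Lam-KD. Every Lam-KD library was above every control, and the Lam-KD libraries were nearly equal. Mean TPM rose 1.56-fold, and the log2 fold change of the reads was 0.47 ± 0.092 with a 95% interval of 0.27 to 0.67 (adjusted P = 0.00884, edgeR). The call was lost without Lam-KD replicate 1 (adjusted P = 0.0625, edgeR) or 2 (0.0529). It was also lost without control replicate 3, where the TPM fold was 1.45, and with the fold of the edgeR fit, which was 1.39.

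Part of the TPM fold came with the estimated transcript length. Reads of Ntf-2, scaled to the library total, were 1.45-fold higher in Lam-KD, and the effective length was 1.06-fold longer in control. The mean transcript length was 789 to 813 nt in control and 769 to 776 nt in Lam-KD, without overlap. Chosen after their values were seen, Nup98-96 and Fs(2)Ket had separate lengths as well, so that this was seen for 3 of the 7 members whose length varied by over 1%, against 17.3% of all such genes.

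Ntf-2r, an autosomal retrocopy of Ntf-2 on 2L, was at 253.5, 207 and 232 TPM in control and 201, 193 and 219 TPM in Lam-KD. The groups overlapped and it did not pass, with a log2 fold change of -0.28 (adjusted P = 0.108, edgeR). The ratio of Ntf-2r to Ntf-2 was 2.11, 1.75 and 2.50 in control and 1.16, 1.11 and 1.28 in Lam-KD, so that the copy exceeded its X-linked parent in every library but by less upon Lam-KD. The log2 difference of the ratio was -0.83 (exact permutation test, two-sided, P = 0.1, the smallest that 3 against 3 libraries allow, adjusted over 3 pairs 0.15). As the copies are alike in sequence, reads could be split between them, which was not tested. Within a tolerance of 0.001, the expected reads of Ntf-2r were whole in all 6 libraries and those of Ntf-2 in 3.

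Ran and its 3L copy ran-like, a retrocopy that is not among the 39 genes, were compared in the same way. Ran was at 499, 501 and 420.0 TPM in control and 537, 548 and 526 TPM in Lam-KD and did not pass (log2 fold change 0.11, adjusted P = 0.345, edgeR), although its groups did not overlap. ran-like fell, from 443, 428 and 566 TPM to 350, 349 and 366 TPM, by 0.53 on the log2 scale (adjusted P = 0.0371, edgeR). Their ratio was 1.03 ± 0.276 in control and 0.661 ± 0.0302 in Lam-KD, a log2 difference of -0.61 that was -0.40 without control replicate 3 (exact permutation test, two-sided, P = 0.1 over all libraries, adjusted over 3 pairs 0.15).

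**Figure D4:**
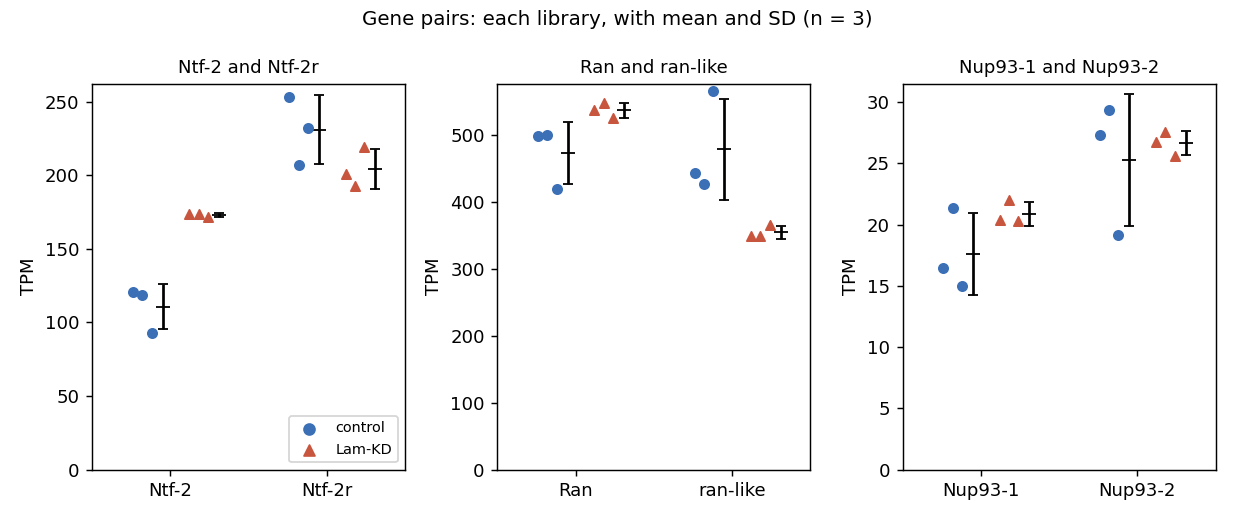
TPM of 3 gene pairs in each library (circles, control, and triangles, Lam-KD), with the mean and SD of 3 libraries in black. Ntf-2 in Lam-KD lies above and ran-like below all control libraries, while both Nup93 genes overlap.

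RanGAP, which stimulates GTP hydrolysis by Ran in the cytoplasm, had 75.7 ± 9.38 and 79.7 ± 3.78 TPM. The mRNA export receptor sbr (NXF1) had 62.3 ± 7.21 and 66.9 ± 2.69 TPM, and its partner Nxt1 had 15.5 ± 1.36 and 18.9 ± 5.58 TPM. None of the 3 passed.

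Of 30 other measured transport genes outside the set, 3 were called higher and 0 lower, and by adjusted P alone 3 were higher and 4 lower. These are 10.0% called higher, against 3.19% of all tested genes, and by adjusted P 10.0% higher and 13.3% lower, against 5.31 and 7.34%. The higher genes were Cse1, the exportin that returns alpha importins to the cytoplasm (18.4 ± 3.13 to 29.1 ± 1.76 TPM, 1.58-fold), Arts, an importin beta family gene (15.5 ± 1.30 to 23.6 ± 2.55 TPM, 1.52-fold), and nxf3, a relative of sbr (1.11 ± 0.423 to 2.06 ± 0.431 TPM, 1.85-fold). alphaKap4, ran-like, RanBPM and nxf4 fell by 0.50, 0.53, 0.34 and 0.33 on the log2 scale. Without control replicate 3, or without Lam-KD replicate 2, 1 of the 30 was called, against 5.64 and 3.49% of all genes then tested. By adjusted P, Cse1 and Arts passed in all 13 alternative fits, whereas alphaKap4, ran-like, nxf4, RanBPM and nxf3 each failed to pass when any one of the 3 Lam-KD libraries was left out. The fold threshold was less stable for Cse1 and Arts. Without control replicate 3, the TPM folds were 1.44 (Cse1), 1.45 (Arts) and 1.59 (nxf3). The folds of the edgeR fit were 1.496, 1.43 and 1.76, so that only nxf3 stayed above 1.5 in both. Expected reads of Arts and nxf3 were fractional in every library, whereas those of Cse1 were whole in every library. The values of Arts and nxf3, and their calls, may thus depend on how reads were shared out, which was not tested.

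The members on the X chromosome were Nup35, Nup93-1, Nup153, Nup205, Elys, Ran, Ntf-2 and sbr. The median log2 fold change of these 8 genes was 0.18, against 0.07 for all tested X-linked genes, and that of the 31 autosomal members was 0.09, against 0.00 for autosomal genes. These medians describe the libraries, with no test between the chromosomes.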

How the data were processed

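RNA-seq of 3 control and 3 Lam-KD samples was used. The 8 Lam-DamID libraries of the series were not used here. The authors mapped reads to dm3, and deposited expected counts and TPM values per gene and library from Salmon on a BDGP5 annotation, with mean and effective transcript lengths. The methods describe merged replicates, whereas the deposited tables are per replicate.

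Expected counts were rounded and tested with edgeR 4.0.16 (TMM scaling, quasi-likelihood test, R 4.3.3) for genes with at least 10 reads in at least 3 libraries, without Lam and LamC. Genes were called at an adjusted P under 0.05 (Benjamini-Hochberg, all genes) and a TPM fold over 1.5. Ratios of gene pairs were compared by exact permutation tests. Alternatives were DESeq2 1.42.0, limma 3.58.1 on log2(TPM + 1), other scalings and filters, a replicate block, and each library left out. The edgeR, DESeq2 and limma tests were run on simulated counts with changes larger than that of any member. The permutation tests were not checked in this way. P-values of the fits set the difference between groups against the spread between these samples, with information shared over genes. Those of the permutation tests rank the difference among all relabelings of the libraries. With 5651960 to 7437111 expected reads per library, genes with few reads have wide intervals.

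The members and lists were chosen with earlier results of these data known. Genes named with values were those with an adjusted P under 0.05, the gene pairs and alpha importins, and the 5 highest and 5 lowest by control TPM; Sec13, Elys, Nup54, Nup62, Gp210, Ndc1, emb, Fs(2)Ket, RanGAP, sbr, Nxt1 and the other transport genes were added to describe each role after their values were seen. Symbols came from a gene name table and the lists, and chromosomes from a RefSeq gene table. Pen, Mtor and the early germline marker vas were matched by hand. Of 31 listed other transport genes, 30 were measured.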

Additional observations from a re-analysis of the deposited data

How the results depend on the processing

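Over all genes, 661 were called; leaving out one library gave 328 to 820, and no fold threshold gave 1305. Of the members, 1 was called, and 0 to 2 with any 1 library left out. With no fold threshold this was 2, and with the fold of the edgeR fit 0. TPM groups did not overlap for 11 members, an alternative chosen after seeing the data. By this measure 23.1% of members were higher and 5.13% lower, against 21.5 and 15.6% of all tested genes. Of the other transport genes, 3 were called: 1 to 3 with one library left out, 7 with no fold threshold and 1 with the fold of the fit. The member median of 0.11 was 0.18 scaled by total reads, 0.20 with limma on log2(TPM + 1), and 0.072 to 0.16 with one library left out. With one library left out, the Lam-KD minus control difference of the log2 ratio ranged from -0.73 to -0.40 for ran-like to Ran. It ranged from -0.96 to -0.70 for Ntf-2r to Ntf-2 and from -0.24 to -0.06 for Nup93-2 to Nup93-1.

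The sign differed in some alternative for 9 members, none of them called, and 30 kept 1 sign. By total reads, Nup93-2 was at 0.058, Nup154 at 0.052 and RanGAP at 0.049. By limma, these were at 0.094, 0.066 and 0.080, and Elys at 0.019. With no filter, Nup93-2 was at 0.012 and Nup154 at 0.0037, and in the replicate block Nup93-2 was at 0.0028. Fs(2)Ket was at -0.0072 with DESeq2 or its size factors and at -0.0022 with a filter of 50 reads. With one library left out, the ranges were -0.031 to 0.065 (Nup75), -0.11 to 0.063 (Nup93-2), -0.053 to 0.031 (Nup154), -0.059 to 0.072 (Nup58), -0.034 to 0.037 (Fs(2)Ket), -0.040 to 0.0056 (RanGAP), -0.081 to 0.33 (Nxt1) and -0.034 to 0.058 (sbr). The cause was not tested.

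Replicate numbers are shared between the groups. Deviations of samples with the same number correlated at 0.059, 0.073 and 0.177, and those with different numbers at -0.156 to 0.107. The sample titles do not say that the numbers pair samples, so the main fit took them as names only. With the replicate block, 9 members (23.1%) passed by adjusted P, against 27.9% of all tested genes. Without the block, these shares were 5.13 and 12.6%. Expected reads were fractional beyond a tolerance of 0.001 for 6 members (Nup160, Nup93-2, Nup154, Nup54, Nup35 and Ntf-2), and Ndc1 lay at this tolerance in 1 library (301.001 reads), so their values may depend on how reads were shared out.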
